A study of Rattus norvegicus with 9 samples.

Results

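The genes described here are the calcium pumps and sodium-calcium exchangers that clear calcium from the cytosol, together with Cd38, an enzyme that makes a calcium-releasing messenger. They are 10 genes of the 34890 loci in the expression table of the series, namely Atp2a2, Atp2a3, Atp2b1, Atp2b2, Atp2b3, Atp2b4, Slc8a1, Slc8a2, Slc8a3 and Cd38, taken by gene name. The set was chosen on measured values, since Cd38 had been noticed for its low level in drug-treated against untreated injured cords, and the transporter families were then put beside it. The difference between those groups is therefore given for the 10 genes as a description with no p-value, with counts of calls printed beside those of all loci and nothing read from them, and the comparisons with sham cords carry the tests, with the limit that the injured and the treated samples had entered the choice.

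RNA of L3-L6 spinal cord tissue was sequenced from 9 Sprague Dawley rats labelled WT, 3 in each of 3 groups. The JA group was sham-operated and received normal saline by mouth, and the SNI group had spared nerve injury, a model of neuropathic pain in which branches of the sciatic nerve are ligated and transected, and received the same saline. The PLM group had the same injury and received by mouth paeoniflorin at 20.65 mg/mL with liquiritin, written in the labels as 3.98, 3.99 and 3.100 mg/mL for replicates 1, 2 and 3, although the methods describe a single middle dose. According to the methods the tissue was the side of the injury; the study asked what the drug pair changed in injured cord, and no uninjured group received the drugs. The labels call the samples biological replicates, and p-values measure the spread between these 3 samples a group.

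Calcium in the cytosol of neurons and glia is kept low by transporters of several kinds. The SERCA pumps, encoded by the Atp2a genes, use ATP to move calcium into the endoplasmic reticulum, the PMCA pumps, encoded by the Atp2b genes, use ATP to push it out through the plasma membrane, and the NCX exchangers, encoded by the Slc8a genes, trade it for sodium that enters along the gradient kept by the Na+/K+ pump. CD38 splits NAD and forms cyclic ADP-ribose, a messenger that releases calcium from the endoplasmic reticulum through ryanodine receptors, and it is known from immune cells as well as from glia.

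Values are TPM, a unit of transcript abundance relative to the whole library, which are scaled per transcript length and can be compared between genes. The number of reads behind each value is unknown, since the table holds no counts. Markers of neurons (Rbfox3), astrocytes (Gfap), oligodendrocytes (Mbp) and microglia (Aif1) were present in every sample, as the tissue label implies. The 13 protein genes of the mitochondrial genome took 29.1% ± 3.75 of TPM in JA, 24.6% ± 1.3 in the SNI samples and 32.0% ± 0.768 in the PLM samples (SD, n = 3), and summed TPM of the Schwann cell markers ran from 124 to 7774 over JA samples, from 573 to 4424 over SNI samples and from 273 to 3254 over PLM samples. Each comparison was made on the values as deposited and again after each sample was centred on its median log2(TPM + 1). Centring takes the same value from every locus of a sample, so it does not remove differences in cell content.

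The levels of the 10 genes spanned about the same order in each group. Atp2a2 stood first in JA, SNI and PLM, with every one of its samples above every sample of the next gene, and Atp2a3 stood last with no sample reaching the gene before it. Atp2b2 came second by mean everywhere. Cd38 followed Atp2b2 by mean in JA and SNI, with overlapping samples in SNI, where replicate 2 held 35.98 TPM of Cd38 and 32.42 TPM of Atp2b2. In PLM it came after Atp2b3 and Atp2b1, where its samples overlapped those of Atp2b1 and Slc8a1. Between these ends Slc8a1, Slc8a3, Atp2b4 and Slc8a2 followed each other closely, and neighbours in that run overlapped in JA and SNI, while in PLM Slc8a2 lay below Atp2b4 in all samples.

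**Figure D1:**
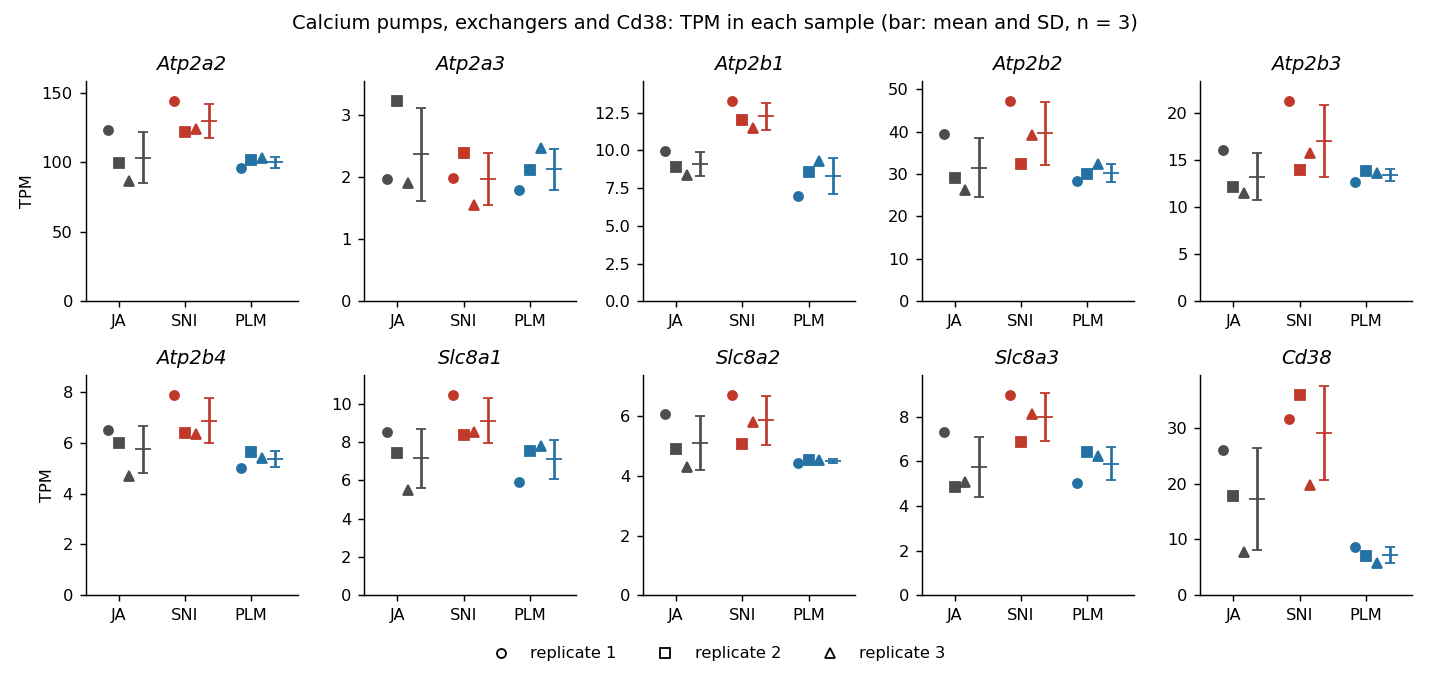
TPM of each of the 10 genes (vertical axis, from 0) in the 9 samples of JA (sham), SNI (injury) and PLM (injury with drugs), with symbols for replicates 1, 2 and 3 and a bar for the mean and SD of each group (n = 3). Cd38 shows the PLM samples between 5.78 and 8.68 TPM and the SNI samples between 19.71 and 35.98 TPM, with JA samples spread across both ranges, whereas the pumps and exchangers differ less.

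Among the SERCA pumps, Atp2a2 (ENSRNOG00000001285), which encodes the widely expressed SERCA2, made up nearly all of the transcript. It measured 123.54, 99.91 and 86.90 TPM in JA replicates 1, 2 and 3. In SNI it measured 144.14, 121.69 and 123.72 TPM, and in PLM 95.78, 101.58 and 103.17 TPM. The PLM samples all lay below the SNI samples, while JA overlapped both groups. The sham mean was 103.5 ± 18.6 TPM, the injured mean 129.8 ± 12.4 TPM and the treated mean 100.2 ± 3.89 TPM (SD, n = 3). In the limma fit on log2(TPM + 1), Atp2a2 in SNI stood 0.34 (SE 0.14) above JA with an adjusted p = 0.614, and PLM stood -0.03 (SE 0.13) from JA with an adjusted p = 0.943. The same difference between PLM and SNI was -0.37 (SE 0.08) as deposited and -0.12 (SE 0.07) after centring.

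Atp2a3 (ENSRNOG00000017912) encodes SERCA3, a pump best known from blood cells and endothelium. It measured 1.97, 3.22 and 1.90 TPM in JA, 1.98, 2.38 and 1.55 TPM in SNI and 1.79, 2.11 and 2.46 TPM in PLM. The 3 groups overlapped. Atp2a3 took 2.28% ± 0.785 of the SERCA transcript in JA, 1.504% ± 0.364 in SNI and 2.07% ± 0.249 in PLM, so Atp2a2 took 97.7% to 98.5% by group mean. It was the 1 member whose fitted value was lower in SNI than in JA, by a log2 difference of -0.17 (SE 0.21) with an adjusted p = 0.754. The difference between PLM and SNI was 0.08 (SE 0.16) as deposited and 0.32 (SE 0.14) after centring, where each PLM sample lay above each SNI sample. The share of all loci with that order was not computed. After centring 42.41% of all loci had a difference below 0. At the low level of Atp2a3 the pseudocount of 1 TPM makes a log2 difference smaller than that of the TPM themselves. Atp2a1, the SERCA pump of fast muscle, was not analysed here.

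The start of Atp2a2, the member with the highest level and the most CpG near its start, is printed beside that of Cd38, the member that differed most between groups. Both are RefSeq sequences of the build GRCr8 from 250 bases before to 50 bases after the annotated start, read 5′ to 3′ on the gene's strand, with each CG dinucleotide in capitals. The Cd38 window is chr14:71424456-71424755 on the minus strand and the Atp2a2 window is chr12:39733269-39733568 on the plus strand.
Cd38: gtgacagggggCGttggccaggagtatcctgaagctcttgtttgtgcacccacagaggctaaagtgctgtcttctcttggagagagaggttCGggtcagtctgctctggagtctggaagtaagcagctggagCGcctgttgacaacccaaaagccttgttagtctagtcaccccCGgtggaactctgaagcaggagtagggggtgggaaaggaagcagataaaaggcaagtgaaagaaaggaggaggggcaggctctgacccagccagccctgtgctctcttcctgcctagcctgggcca
Atp2a2: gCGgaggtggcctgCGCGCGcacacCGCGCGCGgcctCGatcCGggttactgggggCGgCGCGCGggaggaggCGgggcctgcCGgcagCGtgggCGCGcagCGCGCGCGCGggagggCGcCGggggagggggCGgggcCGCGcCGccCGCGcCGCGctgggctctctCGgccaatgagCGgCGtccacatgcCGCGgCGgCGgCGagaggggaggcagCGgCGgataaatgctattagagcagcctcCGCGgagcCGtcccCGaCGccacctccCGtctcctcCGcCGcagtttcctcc
The Cd38 window held 4 CG dinucleotides and the Atp2a2 window 52, against a median of 7 over 33469 promoters of the same length. Windows were found for 9 of the 10 members, and Atp2b3 had no entry. Atp2b1 held 42, Slc8a3 34, Atp2a3 33 and Atp2b2 28, whereas Atp2b4 and Slc8a1 held 6 each and Slc8a2 held 1. The letters GGGCGG, which are found in 33.06% of all windows on either strand, occurred 3 times at Atp2a2 and 0 times at Cd38. CCAAT, found in 37.49% of windows, occurred 1 time at Atp2a2 and 0 times at Cd38, and TATAAA, found in 14.22%, occurred in neither. These matches only describe the letters of the windows, and no measurement of the series bears on binding there.

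Among the PMCA pumps the order of levels was Atp2b2, Atp2b3, Atp2b1 and Atp2b4 in all 3 groups. Atp2b2 (ENSRNOG00000030269) encodes PMCA2, a fast pump mostly found in neurons. It measured 39.37, 29.02 and 26.23 TPM in JA, 47.21, 32.42 and 39.25 TPM in SNI and 28.33, 30.02 and 32.48 TPM in PLM. The highest PLM sample, at 32.48 TPM, lay just above the lowest SNI sample, at 32.42 TPM, so these groups overlapped by that pair. In SNI, Atp2b2 stood 0.32 (SE 0.19) above JA on the log2(TPM + 1) scale with an adjusted p = 0.614. PLM differed from SNI by -0.36 (SE 0.14) as deposited and by -0.12 (SE 0.13) after centring.

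Atp2b3 (ENSRNOG00000061304) encodes PMCA3, the other pump of this family with mainly neuronal expression. It measured 16.11, 12.16 and 11.49 TPM in JA, 21.28, 13.94 and 15.74 TPM in SNI and 12.68, 13.82 and 13.67 TPM in PLM. PLM lay below SNI in all samples, but with the nearest pair of samples at 13.82 and 13.94 TPM. The log2 difference of SNI from JA was 0.33 (SE 0.19) with an adjusted p = 0.614, and that of PLM from SNI was -0.30 (SE 0.15) as deposited and -0.05 (SE 0.14) after centring.

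Atp2b1 (ENSRNOG00000004026) encodes PMCA1, the housekeeping pump of most cells. It measured 9.97, 8.92 and 8.40 TPM in JA, 13.27, 12 and 11.49 TPM in SNI and 6.97, 8.57 and 9.30 TPM in PLM. It was the only member whose SNI samples all exceeded all JA samples, and its SNI samples also exceeded all PLM samples. Both statements held after centring. The mean was 34.7% higher in SNI than in JA, at 12.3 ± 0.917 against 9.10 ± 0.80 TPM. The log2 difference of SNI from JA was 0.39 (SE 0.11) with an adjusted p = 0.614 in limma, and 0.27 (SE 0.08) after centring with an adjusted p = 0.889. PLM stood at -0.13 (SE 0.13) from JA with an adjusted p = 0.724, and at -0.52 (SE 0.12) from SNI as deposited and -0.27 (SE 0.09) after centring.

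Atp2b4 (ENSRNOG00000003031) encodes PMCA4, a slower pump of many tissues. It measured 6.53, 6.01 and 4.71 TPM in JA, 7.90, 6.38 and 6.35 TPM in SNI and 5.02, 5.65 and 5.41 TPM in PLM. All PLM samples lay below all SNI samples, and JA overlapped both. The log2 difference of SNI from JA was 0.23 (SE 0.15) with an adjusted p = 0.622, and that of PLM from SNI was -0.30 (SE 0.11) as deposited and -0.06 (SE 0.09) after centring.

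The balance between the PMCA genes was close between groups. Atp2b2 took 52.7% ± 1.75 of the summed PMCA transcript in JA, 52.2% ± 1.95 in SNI and 52.8% ± 0.986 in PLM. Atp2b1 took 15.4% ± 1.40 in JA, 16.4% ± 1.94 in SNI and 14.4% ± 1.11 in PLM. The differences between these group means were of the size of the SDs. The summed PMCA transcript was 59.6 ± 11 TPM in JA, 75.7 ± 12.7 TPM in SNI and 57.3 ± 3.98 TPM in PLM.

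**Figure D2:**
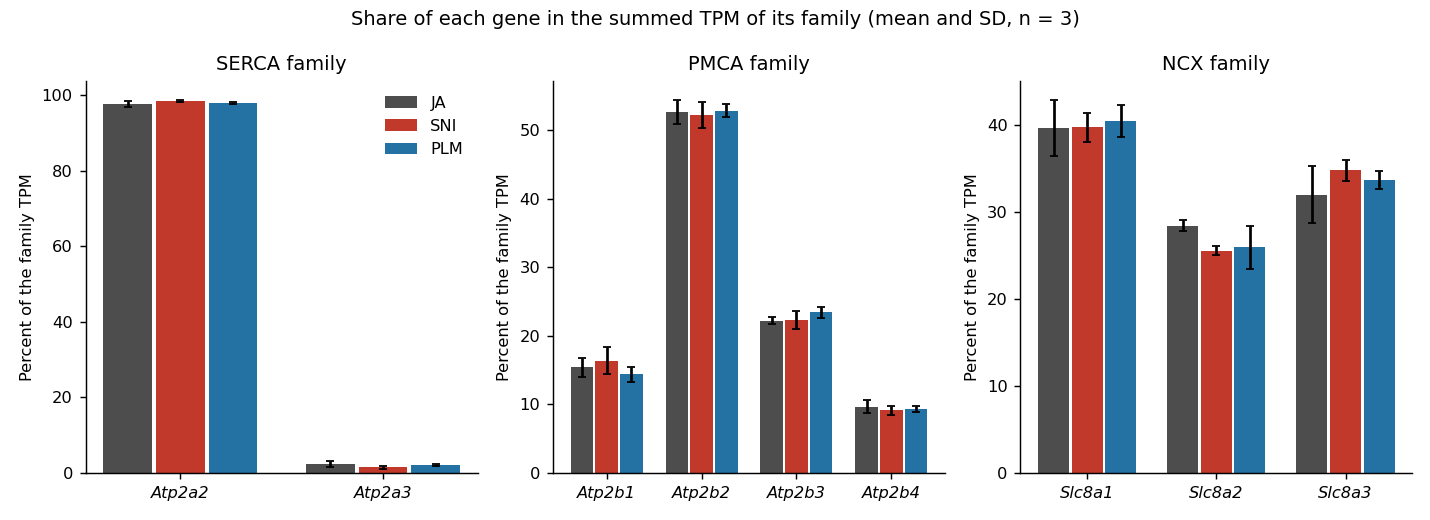
Share of each gene in the summed TPM of its family (percent, vertical axis) for the SERCA, PMCA and NCX families, as mean bars with SD over the 3 samples of JA, SNI and PLM. The leading genes are the same in each group, with Atp2a2 at 97.7% to 98.5% of SERCA, Atp2b2 at 52.2% to 52.8% of PMCA and Slc8a1 at 39.6% to 40.4% of NCX by group mean.

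Of the NCX exchangers, Slc8a1 (ENSRNOG00000008479) encodes NCX1, the widely expressed member that is best known from heart. It measured 8.54, 7.42 and 5.47 TPM in JA, 10.47, 8.36 and 8.51 TPM in SNI and 5.94, 7.55 and 7.81 TPM in PLM. The PLM samples lay below the SNI samples and within the range of JA. The log2 difference of SNI from JA was 0.32 (SE 0.17) with an adjusted p = 0.614, and that of PLM from SNI was -0.32 (SE 0.13) as deposited and -0.07 (SE 0.10) after centring.

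Slc8a2 (ENSRNOG00000001492) encodes NCX2, an exchanger of brain and spinal cord. It measured 6.08, 4.91 and 4.29 TPM in JA, 6.72, 5.08 and 5.82 TPM in SNI and 4.44, 4.54 and 4.54 TPM in PLM. The PLM values were the tightest of any member relative to their mean, and all lay below those of SNI. The log2 difference of SNI from JA was 0.18 (SE 0.15) with an adjusted p = 0.668, and that of PLM from SNI was -0.31 (SE 0.11) as deposited and -0.07 (SE 0.10) after centring. Slc8a2 took 28.4% ± 0.608 of the NCX transcript in JA and 25.5% ± 0.482 in SNI, with samples from 27.7% to 28.9% and from 25.0% to 25.9% that did not overlap, while PLM ran from 24.4% to 28.8%. This share was given no test.

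Slc8a3 (ENSRNOG00000029871) encodes NCX3, found in nervous tissue and skeletal muscle. It measured 7.32, 4.86 and 5.09 TPM in JA, 8.99, 6.88 and 8.11 TPM in SNI and 5.05, 6.43 and 6.23 TPM in PLM. JA replicate 1 reached into the SNI range, and the other JA samples and all PLM samples lay below it. The log2 difference of SNI from JA was 0.42 (SE 0.17) with an adjusted p = 0.614, and that of PLM from SNI was -0.38 (SE 0.13) as deposited and -0.13 (SE 0.11) after centring. The skeletal muscle markers summed to 123.8 TPM in SNI replicate 1 and to between 13.5 and 27.2 TPM in the other 8 samples, and their part in the values of Slc8a3 and Atp2a2 was not tested.

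Cd38 (ENSRNOG00000003069) had the widest range of the 10 genes on the log2 scale. It measured 26.06, 17.79 and 7.74 TPM in JA, 31.57, 35.98 and 19.71 TPM in SNI and 8.68, 6.97 and 5.78 TPM in PLM. All PLM samples lay below all SNI samples, also after centring, and JA replicate 3 lay inside the PLM range. The sham mean was 17.2 ± 9.17 TPM, the injured mean 29.1 ± 8.41 TPM and the treated mean 7.14 ± 1.46 TPM (SD, n = 3), so that the SNI mean was 4.07 times the PLM mean. In terms of rank among the 34890 loci, Cd38 stood between places 3139 and 5077 in SNI samples, between 7497 and 9497 in PLM samples and between 4142 and 8314 in JA samples. In bulk tissue, fewer cells of a type that carries Cd38 and less Cd38 RNA per cell cannot be told apart.

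Cd38 in SNI stood 0.83 (SE 0.43) above JA on the log2(TPM + 1) scale, with an adjusted p = 0.614 in limma. It stood at -1.03 (SE 0.40) in PLM against JA, with an adjusted p = 0.412, and with a 95% confidence interval of the difference from -1.97 to -0.09. After centring these differences were 0.71 (SE 0.40) with an adjusted p = 0.889 and -0.90 (SE 0.38) with an adjusted p = 0.502. Both moved with the JA sample left out. JA replicate 3 also stood apart in other markers, with summed TPM of 7774 for Schwann cells, 323.6 for fibroblasts and meninges and 11880 for blood, against 124 to 677, 74.3 to 80.2 and 5387 to 5676 in the other JA samples, and their part in the Cd38 values was not tested. Without JA replicate 3 the difference of SNI from JA was 0.37 and that of PLM from JA was -1.48, and without JA replicate 1 they were 1.19 and -0.67. Neither passed the threshold of an adjusted p under 0.05 in any of these fits. The difference of PLM from SNI, by which Cd38 was chosen, was -1.86 (SE 0.24) as deposited and -1.61 (SE 0.25) after centring, and ran from -2.11 to -1.69 when single replicates were left out.

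Bst1, the paralog of Cd38 that also cleaves NAD and is its neighbour in the RefSeq gene order, was near the bottom of the measured range. It was listed at 0.23, 0.14 and 0.65 TPM in JA, 0.08, 0.38 and 0.68 TPM in SNI and 0.20, 0.16 and 0.07 TPM in PLM, and it did not reach the mean of 1 TPM required for a test. The markers of lymphocytes and plasma cells, which carry Cd38 in the immune system, summed to between 2.52 and 7.44 TPM in JA samples, 3.77 and 6.07 TPM in SNI samples and 3.04 and 5.93 TPM in PLM samples, with at most 1 of 6 at 0 in a sample. In every sample 1 of these 6 markers reached 1 TPM. The summed level of the 6 was below that of Cd38 alone in every sample and overlapped between groups. The nearest values were those of JA replicate 3, at 7.16 against 7.74 TPM.

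Injury against sham was compared for the 10 genes as a set by counts. In SNI against JA, limma called 0 of the 10 at an adjusted p under 0.05, as it called 0% of the 15557 loci tested, as deposited and centred alike. At an unadjusted p under 0.05 there were 2, Atp2b1 and Slc8a3, against 7.1% of all loci, and 1 after centring, Atp2b1, against 4.83%. SNI samples all lay above JA samples for 1 of the 10, Atp2b1, where 12.1% of all loci did so, and after centring for the same gene, where 4% did so. The counts over members are too small to be set apart from these backgrounds. The fitted difference was below 0 for 1 of 10 members against 23.59% of all loci, with a median of 0.33 against 0.12 over all loci. After centring, 1 of 10 was again below 0 against 51.42% of all loci, with a median of 0.21 against -0.01. Neuronal markers stood higher by value in SNI as well. The 10 neuron markers had a median difference of 0.31 as deposited and 0.19 after centring, with 0 of 10 below 0, and the 4 motor neuron markers tested had 1.12 and 1.00, with 0 of 4 below 0. The 5 motor neuron markers summed to 35.24, 15.05 and 8.14 TPM in JA and to between 34.9 and 48.6 TPM in SNI. Other lists also stood higher, the astrocyte markers by a median of 0.40 as deposited and 0.28 after centring. For Schwann cell markers the medians were 0.56 and 0.44, for skeletal muscle 0.63 and 0.51, and for oligodendrocyte precursors 0.22 and 0.10. Those of oligodendrocytes, microglia, endothelium, fibroblasts and meninges, blood, and lymphocytes and plasma cells were below 0 under either scaling. None of these markers was called, and their part in the values of the members was not tested. Single samples moved several of the members' differences by more than 1.5 times. Without SNI replicate 1 that of Atp2b3 was 0.16, that of Atp2b2 0.19, that of Atp2b4 0.14 and that of Slc8a2 0.09. Without JA replicate 3 that of Atp2a2 was 0.22, that of Atp2b2 0.21, that of Slc8a1 0.17, that of Atp2b4 0.11 and that of Slc8a2 0.08. Without JA replicate 1 those of Atp2b2 and Slc8a2 were 0.49 and 0.29. Atp2a3 ran from -0.27 without SNI replicate 2 or -0.26 without JA replicate 3 to -0.06 without SNI replicate 3 and 0.0077 without JA replicate 2.

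The fitted differences between drug-treated and sham cords were close to 0 for the pumps and exchangers and largest for Cd38. In PLM against JA, limma called 0 of the 10 at an adjusted p under 0.05, against 0.0195% of 15349 loci as deposited and 0.013% after centring. At an unadjusted p under 0.05 there was 1, Cd38, against 11.8% of all loci, and 0 after centring against 9.98%. The differences of the 9 pumps and exchangers lay between -0.14 and 0.04, and between -0.01 and 0.17 after centring. The widest of their deposited intervals, that of Atp2a3, ran from -0.56 to 0.37. The direction of Atp2a2, Atp2a3, Atp2b2 and Atp2b4 in this comparison depended on the scaling.

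**Figure D3:**
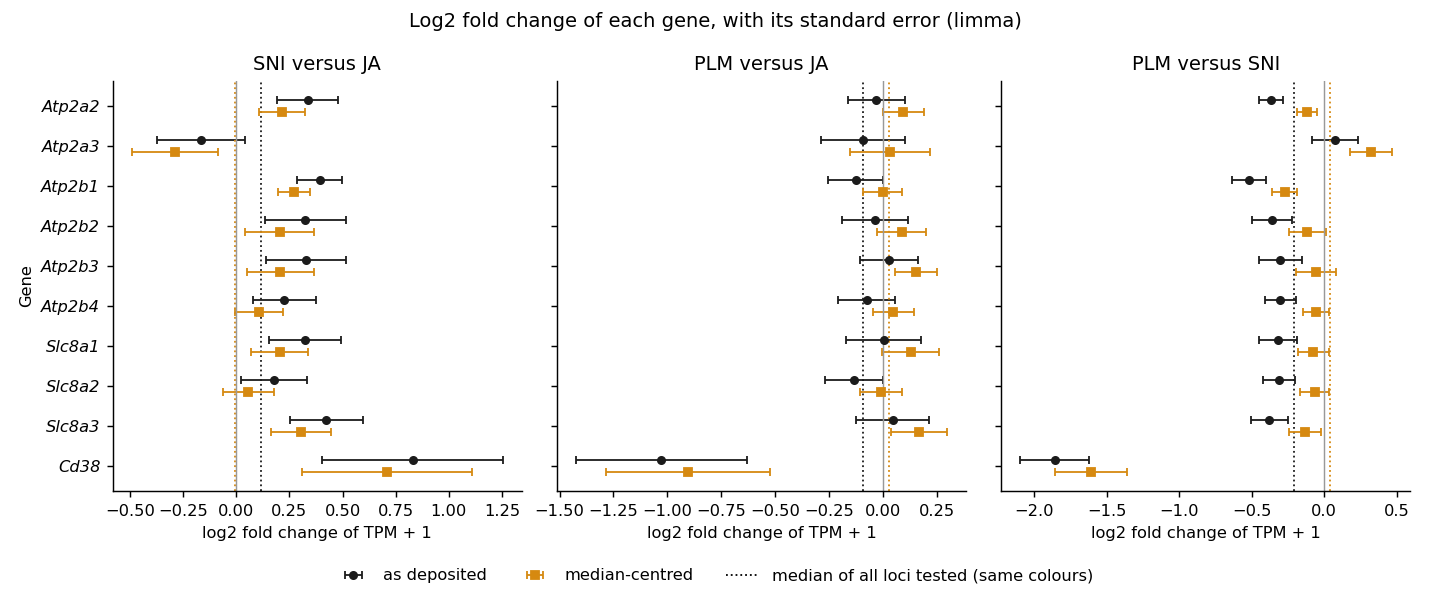
Log2 fold change of TPM + 1 (horizontal axis) of each of the 10 genes in the 3 comparisons, on values as deposited (black circles) and median-centred (orange squares), with bars of 1 standard error from limma and dotted lines at the median of all loci tested. Cd38 is the farthest from 0 in each comparison, at 0.83, -1.03 and -1.86 as deposited, and the median of all loci in PLM versus SNI lies at -0.21 as deposited and 0.04 centred.

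Between PLM and SNI the whole table was shifted on the deposited scale. The median log2 difference of all 15474 loci was -0.21, with 85.05% of loci below 0, and centring moved this median to 0.04. After centring 42.41% of loci were below 0. Of the 10 genes, 9 were below 0 under either scaling, with a median of -0.34 as deposited and -0.10 after centring. At an adjusted p under 0.05 the fit called 3 lower, Atp2a2, Atp2b1 and Cd38, where 13.6% of all loci were called lower, and 0 after centring, where 0.685% were. At an unadjusted p under 0.05 alone, in either direction, it was 8 as deposited, against 37.1% of all loci. At that p with a log2 difference under -1 it was 1, Cd38, against 1.42% of loci as deposited, and the same gene against 0.659% after centring. PLM samples all lay below SNI samples for 8 of the 10 against 41.9% of all loci, and for 3, Atp2a2, Atp2b1 and Cd38, against 9.73% after centring. Since this contrast chose the set, nothing is read from these counts. Without SNI replicate 1 the difference of Atp2b3 was -0.14 and that of Atp2b2 -0.23, without PLM replicate 1 that of Slc8a1 was -0.21, and that of Atp2a3 ran from -0.03 to 0.17 without single samples.

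The pumps and exchangers other than Atp2a3 varied together from sample to sample. For these 8 genes JA replicate 1 was the highest JA sample 8 times of 8, and SNI replicate 1 was the highest SNI sample 8 times of 8. As deposited, PLM replicate 1 was the lowest PLM sample 8 times of 8, and JA replicate 3 was the lowest JA sample 7 times of 8. The orders named for JA and SNI held after centring. In PLM, replicate 1 then stayed lowest for Atp2b1, Slc8a1 and Slc8a3 alone. For Slc8a2 it was the highest centred PLM sample, at -0.74 against -0.79 and -0.83. The median log2(TPM + 1) over 15503 loci was also highest in replicate 1 of JA and SNI, at 3.46 and 3.53. That median was lowest in JA replicate 3, at 3.30, and in PLM replicate 1, at 3.18. Mean log2(TPM + 1) of the neuron markers was likewise highest in replicate 1 of JA and SNI, at 6.59 and 6.84, and lowest in replicate 1 of PLM, at 6.37. In JA it was lowest in replicate 2, at 6.10 against 6.25 in replicate 3, whereas the astrocyte mean was lowest in JA replicate 3, at 5.28. Deviations from the group means gave a median Pearson r of 0.85 over the 28 pairs of these 8 genes as deposited, from 0.58 to 0.97, and of 0.73 after centring, from 0.14 to 0.94. These correlations describe 9 samples whose values share a library each. The part of neuronal content in the 8 genes was not tested.

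As deposited, Cd38 had the order of 7 of these 8 genes in JA, with replicate 1 highest and replicate 3 lowest, and another order in SNI and PLM. Its highest sample was SNI replicate 2 and PLM replicate 1, and its lowest was replicate 3 in both. The mean of the 10 astrocyte markers had the same order of samples in all 3 groups. With the deviations of the 8 pumps and exchangers, those of Cd38 had a median r of 0.49 as deposited and 0.35 after centring. With the deviations of the astrocyte mean they had an r of 0.97 under either scaling, over the same 9 samples. This r was computed for no other marker list. The astrocyte mean spread most in JA, with an SD of 0.573 against 0.165 in SNI and 0.101 in PLM, so the JA samples weigh most in it. Atp2a3 differed again, with a median r of -0.22 with the 8 genes over the 9 samples, groups included, where the 8 among themselves had a median of 0.90, and after centring these medians were -0.53 and 0.78.

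**Figure D4:**
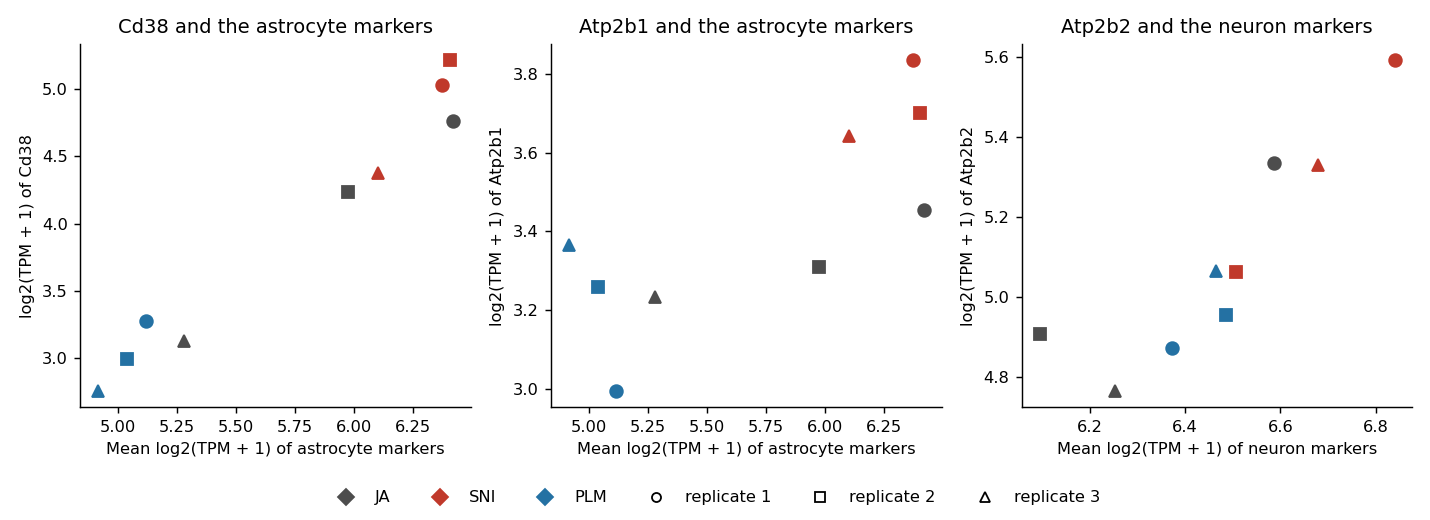
Log2(TPM + 1) of Cd38, Atp2b1 and Atp2b2 (vertical axes) against the mean log2(TPM + 1) of astrocyte or neuron markers (horizontal axes) in the 9 samples, coloured by group with symbols for replicates. Cd38 follows the astrocyte mean through all groups, and JA replicate 3, with an astrocyte mean of 5.28, sits near the PLM samples at 4.92 to 5.12.

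The mean of the astrocyte markers followed Cd38 over the samples, while between JA and SNI the summed markers overlapped and 0 of the 10 was called in limma. None of the 10 was at 0 in any sample, and their summed TPM ran from 1804 to 3480 in JA, from 3015 to 3347 in SNI and from 1486 to 1790 in PLM. Gfap, the intermediate filament of astrocytes, averaged 607 ± 202 TPM in JA, 588 ± 28.3 TPM in SNI and 241 ± 22.1 TPM in PLM. Aqp4, the water channel of astrocyte end-feet, averaged 276 ± 70.4 TPM in JA, 317.5 ± 64.6 TPM in SNI and 137 ± 14.5 TPM in PLM. In PLM against SNI 9 of the 10 markers were called lower as deposited, beside 13.6% of all loci, and 7 after centring, beside 0.685%, and the list was already known to be low in this contrast. The microglia markers summed to 315 to 391.8 TPM in JA, 309 to 339 TPM in SNI and 305 to 346 TPM in PLM, which overlapped. The 4 blood markers summed to 4117 to 7265 TPM in SNI and to 7987 to 11180 TPM in PLM, which did not overlap, with a median log2 difference of 0.82 as deposited and 1.07 after centring and none of the 4 called, and their part in the Cd38 values was not tested. Neuron markers summed to 1569 to 2727 TPM in JA, 2567 to 3215 TPM in SNI and 2398 to 2674 TPM in PLM.

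Relative to the astrocyte mean of the same sample, Cd38 spread less. Its log2(TPM + 1) minus that mean was -1.66, -1.74 and -2.16 in JA, -1.35, -1.20 and -1.73 in SNI and -1.84, -2.04 and -2.16 in PLM. The PLM samples still lay below the SNI samples, with means of -2.01 ± 0.159 and -1.43 ± 0.276 (SD, n = 3), and JA overlapped both. Both the astrocyte list and Cd38 were known to be low in PLM when this was computed, and what part the astrocyte content of the samples had in the Cd38 values was not tested.

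Loci whose levels followed Cd38 closely over the 9 samples were found among 13952 loci by Pearson r of log2(TPM + 1). As deposited they included Arhgef19, a guanine nucleotide exchange factor (0.996), Elovl2, which elongates polyunsaturated fatty acids (0.995), Plcd4, a phospholipase C (0.992), and Slc4a4, a sodium bicarbonate cotransporter (0.991). After centring they included Elovl2, Plcd4, Slc4a4 and Mlc1, a membrane protein of astrocyte end-feet, with r from 0.987 to 0.994. Slc4a4 belongs to the astrocyte marker list. Elovl2 averaged 9.89 ± 5.11 TPM in JA, 15.0 ± 2.87 TPM in SNI and 4.63 ± 0.735 TPM in PLM. The 9 points share the differences between groups, so these values describe likeness over these samples.

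The neighbouring machinery was read from 7 lists of calcium and NAD genes with 61 genes tested. The lists were written with earlier results of these data known, so p-values of their genes in PLM against SNI are not independent tests. In SNI against JA and in PLM against JA limma called 0 of the 61 at an adjusted p under 0.05, under either scaling. In PLM against SNI it called 16 lower and 0 higher as deposited, beside the 13.6% of all loci called lower, and 2 lower and 0 higher after centring, beside 0.685%. With single samples left out, 15 were called without SNI replicate 2, 6 without PLM replicate 3, 4 without SNI replicate 3, and 3 each without PLM replicate 1, PLM replicate 2 or SNI replicate 1. The 2 that passed after centring were Tpcn1 and Atp1b2.

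**Figure D5:**
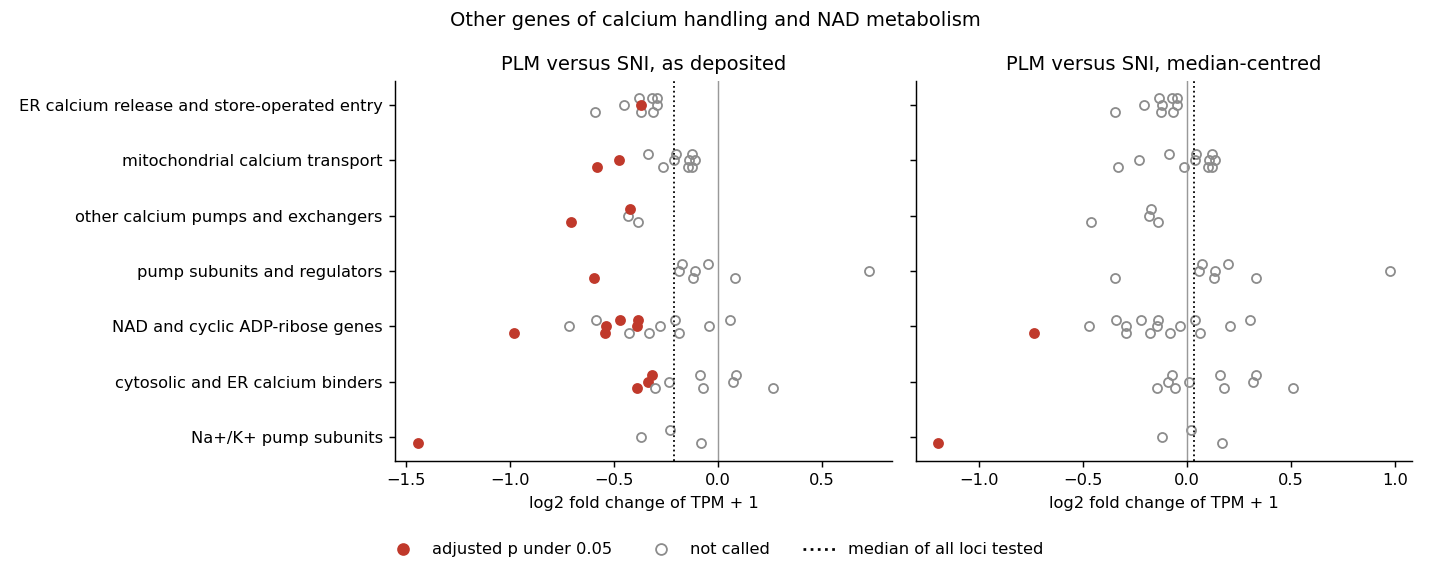
Log2 fold change of TPM + 1 between PLM and SNI (horizontal axis) of the 61 genes of 7 lists, as deposited (left) and median-centred (right), 1 point a gene, with filled red points for an adjusted p under 0.05 and a dotted line at the median of all loci tested. Of the filled points 16 are on the left and 2 on the right, where Atp1b2 lies lowest at -1.19, followed by Tpcn1 at -0.73.

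Among genes of the Na+/K+ pump, whose sodium gradient drives the NCX exchangers, Atp1b2, a beta subunit found in glia, measured 475.2, 347.2 and 189.9 TPM in JA, 515.2, 513.4 and 437.6 TPM in SNI and 202.7, 180.9 and 156.3 TPM in PLM. The PLM samples lay below all SNI samples and overlapped JA by its replicate 3. Atp1b2 fell by 1.44 (SE 0.11) on the log2 scale in PLM against SNI, with an adjusted p = 0.00477 in limma, and by 1.19 (SE 0.13) after centring, with an adjusted p = 0.0274. It was the 1 gene called of the 4 tested in this list, whose median was -0.30 as deposited against -0.21 over all loci, and -0.05 after centring.

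Of 15 genes of NAD and cyclic ADP-ribose metabolism, 6 were called lower as deposited in PLM against SNI, beside 13.6% of all loci, and 1 after centring, beside 0.685%. Tpcn1, a calcium channel of endosomes and lysosomes that the messenger NAADP opens, fell by 0.98 (SE 0.08) as deposited and by 0.73 (SE 0.07) after centring, where its adjusted p = 0.0263. It measured 27.17, 23.38 and 17.13 TPM in JA, 27.36, 29.87 and 25.35 TPM in SNI and 13.18, 13.49 and 13.63 TPM in PLM, where all samples lay below those of the other groups. Nadk2, Naprt and Nadk, enzymes that phosphorylate NAD or build it from nicotinic acid, fell by 0.54 (SE 0.11), 0.54 (SE 0.09) and 0.47 (SE 0.07) as deposited, and none of them was called after centring. The median of the list was -0.39 as deposited and -0.14 after centring, where those of all loci were -0.21 and 0.04.

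The next lists hold the stores, their release channels and the proteins that bind calcium. Of 9 genes of endoplasmic reticulum calcium release and store-operated entry, 1 was called lower in PLM against SNI as deposited, the store sensor Stim2, which fell by 0.37 (SE 0.08), and 0 after centring. All 9 were below 0 under either scaling, where 85.05% of all loci were as deposited and 42.41% after centring, with medians of -0.37 and -0.12, where the medians of all loci were -0.21 and 0.04. Of 10 calcium binders of cytosol and endoplasmic reticulum, 3 were called lower as deposited, the chaperones Calr (fell by 0.39), Canx (fell by 0.34) and Hspa5 (fell by 0.32), and 0 after centring, with medians of -0.16 and 0.09.

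Mitochondrial transport and the remaining exchangers made up the rest. Of 11 genes of mitochondrial calcium transport, 2 were called lower as deposited, namely the mitochondrial sodium-calcium exchanger Slc8b1 (fell by 0.58) and Letm1 (fell by 0.47), and 0 after centring, with medians of -0.20 and 0.04. Of 4 other calcium pumps and exchangers, 2 were called lower as deposited, the potassium-dependent sodium-calcium exchangers Slc24a4 (fell by 0.71) and Slc24a3 (fell by 0.42), and 0 after centring, with medians of -0.43 and -0.18. Of 8 loci of pump subunits and regulators, 1 was called lower as deposited, the PMCA-binding protein Pdzd11 (fell by 0.59), and 0 after centring, with medians of -0.11 and 0.13. That list holds Calm2 at 2 loci of the table, whose values are uncertain because reads could be shared between them, and Calm3 was not analysed here.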

How the data were processed

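The deposited table holds TPM per gene locus for 9 samples, made by the authors from RNA-seq reads. The study's methods name HISAT2 for alignment and StringTie for expression values, and the submitters' processing notes name CASAVA, fastp 0.19.5 and StringTie. The one genome build in those notes is GRCh38.p13, a human build, although the samples are rat and 32883 of the 34890 loci carry Ensembl identifiers, so the build is uncertain here and no coordinates were taken from the table. TPM do not hold read numbers, so sequencing depth and counting error could not be given for any sample.

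Samples were grouped by GEO's labels. On log2(TPM + 1), loci averaging 1 TPM or more in the 6 samples compared were fitted with limma 3.58.1 (variance trend) in R 4.3.3, with Benjamini-Hochberg adjustment over all loci tested and a threshold of 0.05. The study's own threshold, an unadjusted p under 0.05 with an absolute log2 fold change above 1, was an alternative. All 10 members passed the filter in each comparison. The fit was tested on simulated data with known fold changes. Fold changes on this scale understate those of low genes.

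Other settings were median centring, quantile normalization, rescaling without 13 mitochondrial protein genes, a pseudocount of 0.1, other filters, all 9 samples in 1 fit, a block for the replicate number, and fits without single replicates. The members, the 7 pathway lists and the 12 marker lists were chosen with earlier results of these data known. Named beside the members were loci among the 5 most like Cd38 by Pearson r, at most 4 genes a list with the largest change among those called, Bst1, Atp2a1 and 5 cell type markers. Promoter windows and gene order came from RefSeq (GRCr8), matched by gene symbol. Some genes of these lists are not reported here and were left out of the list counts.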

Additional observations from a re-analysis of the deposited data

How the results depend on the processing

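For the 10 genes, the count called at an adjusted p under 0.05 in PLM against SNI was 3 and became 0 after median centring and after quantile normalization, and 1 without the mitochondrial protein genes, with no filter, with all 9 samples in 1 fit and with the replicate block. It was 1 at an unadjusted p under 0.05 with an absolute log2 fold change above 1, 8 at an unadjusted p under 0.05 alone (a threshold added after seeing the data), and 0 to 3 when single replicates were left out. That contrast chose the genes, so these counts show nothing about stability, and shares of all loci are given beside the deposited, centred and unadjusted counts of PLM against SNI in the results. In SNI against JA the count was 0, and 2 at an unadjusted p under 0.05. In PLM against JA it was 0, and 1 under both unadjusted thresholds. With the replicate block it stayed at 0 in both. The pathway genes called in PLM against SNI numbered 16, 2 after centring and 3 to 15 without single replicates, which were left out as an alternative added after seeing the data. Same-numbered samples had correlations of their deviations from -0.05 to 0.13, and not every sample correlated best with its own number, so the numbers were not taken to pair the rats.

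Differences near 0 in PLM against JA changed sign. Atp2a2 (-0.03) was 0.0923 centred, 0.0449 with quantile normalization, 0.0254 without the mitochondrial genes, and -0.149 to 0.103 without single replicates. Atp2a3 (-0.09) was 0.032 centred, 0.0092 with quantile normalization, and -0.188 to 0.0827. Atp2b2 (-0.04) was 0.0855, 0.0544 and 0.0177 under the same 3 scalings, and -0.157 to 0.127. Atp2b4 (-0.08) was 0.0466 centred, 0.0493 with quantile normalization, and -0.193 to 0.0064. Without single replicates Atp2b3 (0.03) ran from -0.0613 to 0.166, Slc8a1 (0.0028) from -0.15 to 0.13 and Slc8a3 (0.04) from -0.0501 to 0.203. In SNI against JA, Atp2a3 (-0.17) ran from -0.27 to 0.0077, the last without JA replicate 2. The cause was not tested. In SNI against JA and in PLM against JA, Cd38 had the same sign under all alternatives run, and it passed the adjusted threshold in none. TPM hold no read counts, so the counting error of low members such as Atp2a3 is unknown.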
